A study of Mus musculus with 2 samples.

Results

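Ly49 and other NK receptor genes were described across the NK, ILC1-like and T cells of mouse visceral adipose tissue (VAT) and between normal water (NW) and antibiotic treatment (ABX). The members were chosen by name, as 10 of the 26981 genes listed in the files: the Ly49 genes Klra1, Klra7, Klra8 and Klra9, the lectin-like receptor genes Klrb1c, Klrc1, Klrd1, Klrk1 and Klre1, and Ncr1, together with the counts of the NK-1.1 antibody. CD45+ cells had been isolated from the VAT of wild-type C57BL/6 mice aged 15 weeks that drank normal water or water with ampicillin, vancomycin, streptomycin and colistin, and had been profiled by single-cell RNA sequencing with oligonucleotide-tagged antibodies (AbSeq). Each condition was 1 library, and how many mice were pooled in it is not given in the sources used here. The difference between the libraries therefore has no replicate check, no p-values are given, and all intervals are exact 95% intervals that cover counting error only.

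NK cells balance signals from inhibitory and activating receptors, most of which are encoded in a gene cluster called the NK gene complex. Inhibitory Ly49 receptors bind classical MHC class I molecules, each is expressed by a fraction of the NK cells, and these fractions overlap, so that a population carries many receptor combinations. ILC1s are tissue-resident innate lymphoid cells that share the receptors NK1.1 and NKp46 with NK cells but do not depend on Eomes, and some T cells acquire the same receptors.

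After filtering, 12474 cells of NW and 12724 of ABX were left, with a median of 5092 and 3845.5 unique molecular identifiers (UMIs, counted mRNA molecules) per cell, and 196 cell labels occurred in both libraries. Clusters were formed without any gene whose symbol starts with Klr, without Ncr1 and without the NK-1.1 antibody, so that the receptors did not choose the classes. The NK-like class held 328 cells in NW and 384 in ABX, and the ILC1-like class held 90 and 193. Over both libraries Eomes, the transcription factor that defines NK cells, had a UMI in 65.9% of NK-like and 5.30% of ILC1-like cells, Gzma (granzyme A) in 72.2% and 5.30%, and Cxcr6, a chemokine receptor of resident cells, in 6.60% and 53.0%. Other NK markers separated the classes less, as Prf1 had a UMI in 64.9% and 29.3% and Nkg7 in 92.0% and 90.5%. Txk was the only NK marker less frequent in NK-like than in ILC1-like cells, with 51.5% and 59.4%. Of the T cell markers, Cd3e had a UMI in 9.41% of NK-like and 9.19% of ILC1-like cells. Trbc1 had one in 55.5% and 54.8% and Trbc2 in 30.3% and 57.6%, and the part of T cells in these classes was not tested. The ILC1 marker Itga1 was found in 33.9% of ILC1-like and 7.72% of NK-like cells. Some clusters with T cell markers could not be given a narrower name. Of these, T cluster A (175 and 242 cells) had Cd3e in 89.0%, Cxcr6 in 66.7% and Itga1 in 49.4% of its cells. T cluster B (74 and 111 cells) had Cd3e in 74.1% and Il7r in 83.2%. Median depth in these 4 groups lay between 2874 UMIs, in T cluster A of NW, and 3816 UMIs, in T cluster B of ABX.

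In GRCm38, 9 of the 10 genes lie within 1608 kb of chromosome 6, the NK gene complex. Klrb1c, which encodes NK1.1, is at chr6:128778485-128789215 on the minus strand. It is followed by Klre1 at chr6:129577905-129585827 and Klrd1 at chr6:129591782-129598775 on the plus strand, and by Klrk1 at chr6:129610323-129623864 and Klrc1 at chr6:129666015-129678973 on the minus strand. The 4 Ly49 genes are all on the minus strand within 272 kb, in the order Klra8 (chr6:130115226-130129898), Klra9 (chr6:130178675-130193112), Klra7 (chr6:130218605-130233322) and Klra1 (chr6:130363917-130386874). Ncr1, which encodes NKp46, is the exception, at chr7:4337724-4345164. All 10 are annotated as protein-coding.

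The sequences from 250 bases before to 50 bases after the RefSeq start site of the Ly49 genes are shown because these neighbouring genes had different cell class patterns. They are read 5′ to 3′ along the gene, from chr6:130386825-130387124, chr6:130231638-130231937, chr6:130129849-130130148 and chr6:130193063-130193362 of GRCm38.p6, all on the minus strand. Capitals mark the matches to 3 motifs that were searched on both strands. For Klra7 and Klra8, which have 2 RefSeq start sites each, the first was used. That of Klra7 lies inside the gene as given above, whereas the start sites of the other 3 genes are at their annotated 5′ ends. The Klra7 matches and identities below therefore concern an internal start site.
Klra1: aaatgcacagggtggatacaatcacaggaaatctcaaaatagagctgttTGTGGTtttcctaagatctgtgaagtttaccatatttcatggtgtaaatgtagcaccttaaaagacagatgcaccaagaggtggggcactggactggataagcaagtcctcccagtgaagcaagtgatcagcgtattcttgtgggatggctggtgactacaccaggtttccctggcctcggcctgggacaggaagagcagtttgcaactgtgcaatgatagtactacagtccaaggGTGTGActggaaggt
Klra7: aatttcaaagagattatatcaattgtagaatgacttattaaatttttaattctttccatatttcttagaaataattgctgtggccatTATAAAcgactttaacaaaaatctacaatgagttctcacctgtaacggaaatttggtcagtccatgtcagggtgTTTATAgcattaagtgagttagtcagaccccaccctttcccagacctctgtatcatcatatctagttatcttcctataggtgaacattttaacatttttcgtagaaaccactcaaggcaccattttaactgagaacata
Klra8: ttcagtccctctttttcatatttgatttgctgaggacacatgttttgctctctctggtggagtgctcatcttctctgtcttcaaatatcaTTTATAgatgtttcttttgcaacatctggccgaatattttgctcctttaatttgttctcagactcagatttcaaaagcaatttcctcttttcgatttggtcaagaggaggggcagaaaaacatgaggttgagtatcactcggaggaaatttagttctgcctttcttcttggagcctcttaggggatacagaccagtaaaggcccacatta
Klra9: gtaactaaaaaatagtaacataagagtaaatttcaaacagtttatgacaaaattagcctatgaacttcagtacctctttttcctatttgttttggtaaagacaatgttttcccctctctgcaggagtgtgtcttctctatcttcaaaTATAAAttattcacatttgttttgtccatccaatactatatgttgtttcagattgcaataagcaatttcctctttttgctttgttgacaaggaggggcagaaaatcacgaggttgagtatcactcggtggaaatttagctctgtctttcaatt
TGTGGT, the core bound by Runx factors, occurred 1 time in the Klra1 window, and so did TCACAC, a core bound by T-box factors, here on the opposite strand. Neither string occurred in the other 3 windows. TATAAA, the string of the TATA box, occurred 2 times in the Klra7 window, 1 time each in those of Klra8 and Klra9, and not in that of Klra1. The matches start at bases 88 and 162 of the Klra7 window, 91 of the Klra8 window and 148 of the Klra9 window. The start site follows base 250. The Klra8 match and the Klra7 match at base 162 are on the opposite strand. Whether any of them acts as a TATA box was not tested. None of the 3 strings is rare, since 16.8%, 14.5% and 13.6% of 32851 promoter windows of this length held them. The Klra8 and Klra9 windows were 76.2% identical over 256 aligned columns and shared the run gaggttgagtatcactcgg, whereas the other pairs were 55.9% to 57.6% identical. The genes with the most similar windows, Klra8 and Klra9, had unlike patterns across the cell classes, as follows.

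Klra8 encodes Ly49H, an activating receptor that signals through the adaptor DAP12 and binds a cytomegalovirus protein. A Klra8 UMI was found in 54.0% (48.4 to 59.5) of NK-like cells of NW and 48.2% (43.1 to 53.3) of ABX, with levels of 1426 (1358 to 1496) and 1286 (1224 to 1349) CPM, the UMIs of the gene scaled to the summed UMIs of the class. Cells with the transcript held a median of 8 UMIs in NW and 7 in ABX, and up to 41. In ILC1-like cells only 1 of 90 cells in NW and 10 of 193 in ABX held a Klra8 UMI, with 2 and 31 UMIs in all. That is a share of 1.11% (0.0281 to 6.04) in NW and 5.18% (2.51 to 9.32) in ABX. T clusters A and B were as low, with shares of 1.71% to 2.70%. B cell-like cells, which should lack the gene, gave 1.53% and 1.47% at a median depth of 4303 and 3892.5 UMIs, and macrophage-like cells gave 1.798% and 1.75% at 5648 and 4080 UMIs, so the intervals of the T clusters and of the ILC1-like cells of NW include the background of free RNA. Over the 10 members the shares in these background classes were 0.735% to 5.12% and 0.437% to 4.44%. NK-like cells held 81.6% of all Klra8 UMIs of the NW library and 77.5% of those of ABX.

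Klra9 encodes Ly49I, an inhibitory receptor, and followed another pattern. Its level was 753 CPM (704 to 805) in NK-like and 728 CPM (636 to 829) in ILC1-like cells of NW, and 850.5 CPM (801 to 903) and 977 CPM (902 to 1057) in ABX. A UMI was seen in 55.5% and 55.2% of NK-like cells and in 43.3% and 52.3% of ILC1-like cells. NK-like and ILC1-like cells of NW could not be told apart in this gene, T cluster A followed with 457 and 462 CPM, and T cluster B was lowest of the 4, with 77.5 and 162 CPM. In ILC1-like cells Klra9 was the main Ly49 transcript: 35 of the 46 cells of NW and 76 of the 109 cells of ABX with any of the 4 Ly49 transcripts held Klra9 alone. The counts of Klra9 are less certain than those of Klra8, since 23.7% of the 75-base windows in the last 500 bases of its transcripts also occur in other Ly49 transcripts, among them those of Klra10, Klra3 and Klra8.

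Klra7 encodes the inhibitory receptor Ly49G. In NW it was at 429.8 CPM (393 to 469) in NK-like cells and 397 CPM (330.2 to 474) in T cluster B, which overlapped, then at 221 CPM (183 to 264) in T cluster A and 48.5 CPM (27.2 to 80.01) in ILC1-like cells. T cluster B led in ABX with 486 CPM (426 to 552), while T cluster A with 348 CPM (308 to 393) and NK-like cells with 343 CPM (312 to 377) overlapped, and ILC1-like cells had 123 CPM (96.9 to 153). Klra1 encodes Ly49A, also an inhibitory receptor, and had another order: T clusters A and B were above NK-like cells in both libraries. T cluster A had 299.6 CPM (255 to 349) in NW and 408 CPM (364 to 456) in ABX, T cluster B had 229 (179 to 289) and 306 (259 to 359), and NK-like cells had 80.01 (64.7 to 97.9) and 94.1 (78.0 to 112). ILC1-like cells had 61.4 CPM (37.0 to 96.0) and 67.6 CPM (48.9 to 91.0), with intervals that overlapped those of NK-like cells. Of all Klra1 UMIs, 33.8% in NW and 34.5% in ABX were in T cluster A.

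**Figure D1:**
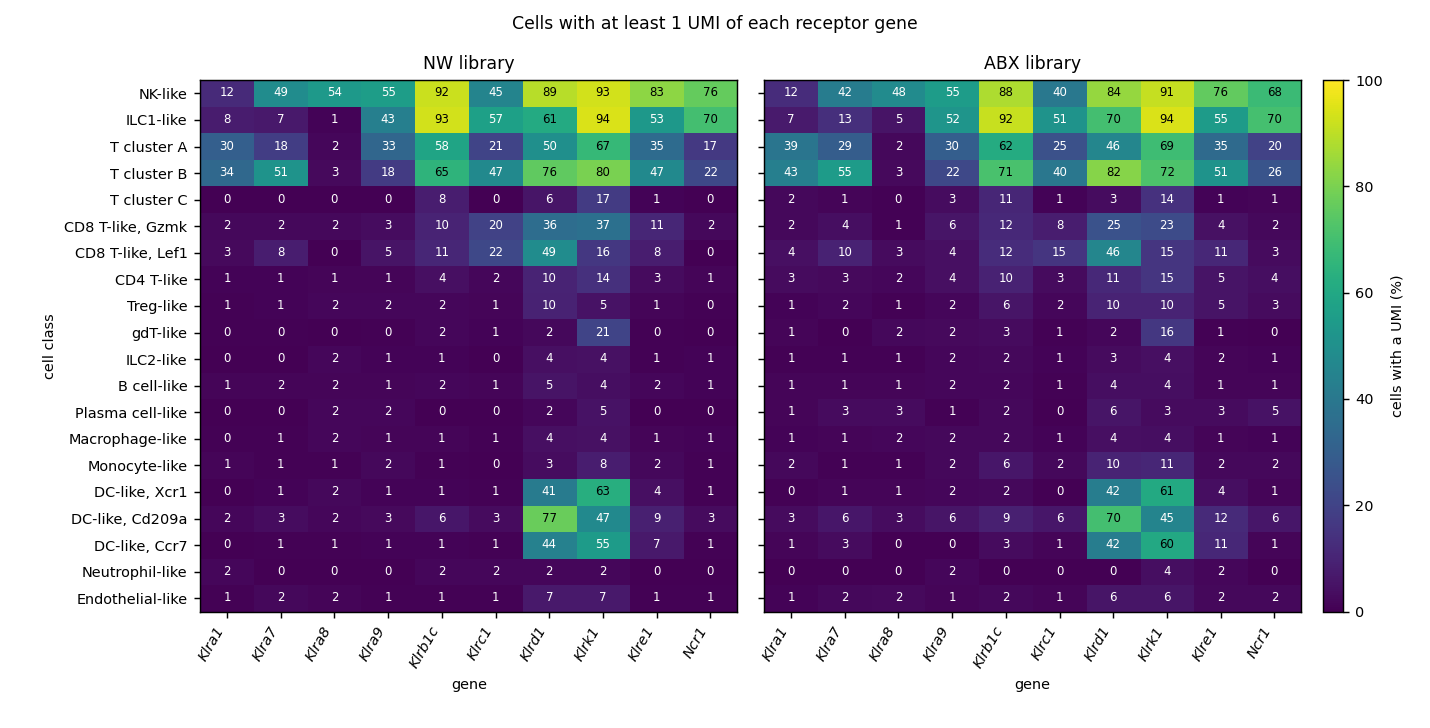
The colours give the percentage of cells with at least 1 UMI of each of the 10 receptor genes (columns) in each cell class (rows) of NW and ABX. Klra8 stands out in NK-like cells alone (54.0% and 48.2%), Klra1 is most frequent in T clusters A and B (30.3% to 43.2%), and Klrd1 and Klrk1 also appear in the DC-like classes.

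Klrd1 encodes CD94, and Klrc1 encodes its partner chain NKG2A, an inhibitory receptor that binds Qa-1 together with CD94. Klrk1 encodes NKG2D, an activating receptor for stress-induced ligands. Klrk1 had a UMI in 93.3% and 91.1% of NK-like cells and in 94.4% and 94.3% of ILC1-like cells, with 1094 and 1097 CPM against 1290.4 and 1098 CPM. It was the most widely shared member, at 773 to 855 CPM in T cluster A and 706 to 801 CPM in T cluster B. Klrc1 was the one member higher in ILC1-like cells than in NK-like cells by more than 1.5-fold in both libraries. Its level was 595 CPM (512 to 688) in NW and 507 CPM (454 to 566) in ABX in ILC1-like cells, against 364 (331 to 400.5) and 296 (266 to 327) in NK-like cells, which gave log2 ratios of 0.71 (0.45 to 0.96) and 0.78 (0.56 to 1.00). In clusters made from mRNA alone, without the antibodies, these ratios were inside 1.5-fold, at 0.30 and 0.48, and with cells gated one by one on marker genes and the TCR-beta antibody they were 0.32 and 0.68. Part of its count can come from relatives, since 29.5% of its windows are shared with Klrc2 and Klrc3. Its partner Klrd1 went the other way, with 433 and 609.6 CPM in ILC1-like and 883 and 825 CPM in NK-like cells. Klre1, an NK complex lectin that pairs with other receptor chains, was likewise lower in ILC1-like cells, at 362 and 359.8 CPM against 708 and 583 CPM.

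Klrb1c and Ncr1, which define NK1.1+ NKp46+ cells in flow cytometry, did not separate the classes. A Klrb1c UMI was found in 92.1% and 87.8% of NK-like cells and in 93.3% and 91.7% of ILC1-like cells, with levels of 1118 and 1064 CPM against 1103 and 1111 CPM. Ncr1 was found in 76.2% and 68.2% of NK-like and in 70.0% and 70.5% of ILC1-like cells. The log2 ratios of ILC1-like to NK-like cells were -0.02 (-0.20 to 0.15) and 0.06 (-0.07 to 0.19) for Klrb1c, and -0.18 (-0.42 to 0.06) and 0.08 (-0.10 to 0.26) for Ncr1. All these intervals lie within 1.5-fold of equal levels. In the T clusters Ncr1 was less frequent than Klrb1c: 16.6% and 19.8% of T cluster A and 21.6% and 26.1% of T cluster B had an Ncr1 UMI, against 58.3% to 71.2% for Klrb1c. Of the Klrb1c windows, 13.7% are shared with relatives, among them Klrb1a and Klrb1b.

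**Figure D2:**
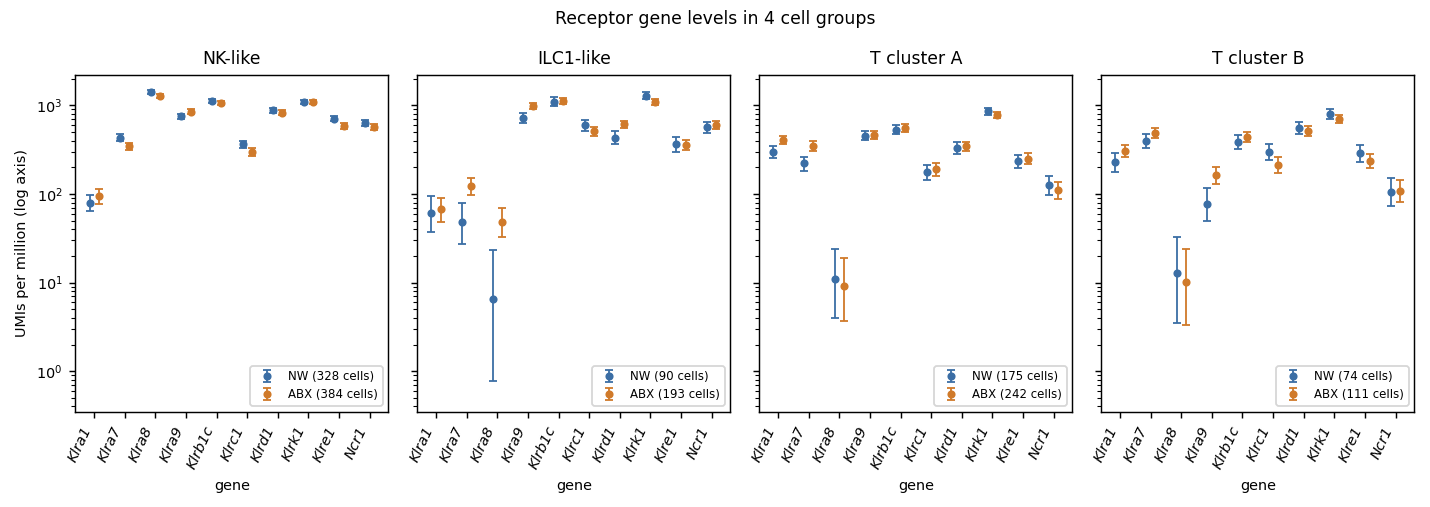
Points give the level of each receptor gene in CPM on a log axis in 4 cell groups, blue for NW and orange for ABX, with exact 95% Poisson intervals. Klra8 is at 1426 and 1286 in NK-like cells and between 6.47 and 48.7 in the other groups, whereas Klrk1 stays between 706 and 1290.4 in all of them.

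Within each library ILC1-like cells were thus set against NK-like cells gene by gene. Of the 10 members, 5 in NW and 4 in ABX differed by more than 1.5-fold, where 19.8% of 5106 genes in NW and 13.8% of 5878 genes in ABX with at least 50 UMIs in both groups together did so. Klra8 differed most, with log2 ratios of -7.78 (-10.83 to -5.93) in NW and -4.72 (-5.28 to -4.21) in ABX, or 26.4-fold lower in ABX. The size of this ratio depended on how the classes were formed, with -3.89 and -3.96 in clusters from mRNA alone and -2.63 and -2.41 with cells gated one by one. Klra7 had -3.15 (-4.00 to -2.41) and -1.49 (-1.85 to -1.14), and Klre1 had -0.97 (-1.26 to -0.68) and -0.70 (-0.92 to -0.48). Klrd1 was past 1.5-fold in NW, with -1.03 (-1.30 to -0.77), and inside it in ABX, with -0.44 (-0.61 to -0.27). The sum of the 4 Ly49 genes was 844 CPM in ILC1-like against 2689 CPM in NK-like cells of NW and 1216 against 2573 CPM in ABX, a log2 ratio of -1.67 (-1.86 to -1.49) and -1.08 (-1.20 to -0.97).

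The T clusters differed from NK-like cells in more of the members. For T cluster A, 9 of 10 members in NW and 8 of 10 in ABX were past 1.5-fold, against 20.6% and 18.5% of all genes tested. In T cluster B the counts were 7 and 8 of 10, against 26.2% and 23.8%. Klra1 was the sole member higher in the T clusters by this measure, with log2 ratios of 1.90 (1.53 to 2.29) and 2.12 (1.81 to 2.43) for T cluster A and 1.52 (1.05 to 1.98) and 1.70 (1.34 to 2.06) for T cluster B. Klrk1 was inside 1.5-fold in T cluster A, with -0.36 (-0.51 to -0.20) and -0.50 (-0.65 to -0.36), and Ncr1 was lower in both clusters, between -2.34 and -2.58. Klra9 separated the T clusters from each other, at -0.72 and -0.88 in A against -3.28 and -2.39 in B. T cluster C (86 and 204 cells, Cxcr6 in 87.9% and Cd3e in 91.0%) had no UMI of the 4 Ly49 genes in 86 cells of NW, which allows a share of up to 3.49% by the limit of 3 counts (exact upper limit 4.199%), and a UMI of any of them in 5.39% of cells in ABX, where B cell-like cells had 4.202%. Klrk1 was its most frequent member, in 17.4% and 14.2% of cells. Among γδ T-like cells Klrk1 reached 20.5% and 16.1%, and no other member was above 2.81%.

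Ly49 transcripts were then counted in single cells. In NK-like cells of NW, 14.3% had none of the 4, 24.1% had 1, 39.0% had 2, 22.3% had 3 and 0.305% had all 4. In ABX the shares were 17.97%, 27.6%, 34.9%, 17.7% and 1.82%. At least 2 of the 4 were seen in 61.6% (56.1 to 66.9) of cells in NW and 54.4% (49.3 to 59.5) in ABX, and in 37.3% and 33.5% once every cell was thinned to 1000 UMIs, with 3 NW and 8 ABX cells below that depth left out. A cell can lack a UMI of a gene that it expresses, and free RNA, doublets and sequence shared between Ly49 genes can add one, and the size of each was not tested. ILC1-like cells had at least 2 in 6.67% and 15.5%, T cluster A in 28.0% and 33.9%, and T cluster B in 33.8% and 41.4%. The most frequent combinations in NK-like cells were Klra7 with Klra8 and Klra9 in NW (15.9%, against 12.8% in ABX) and Klra9 alone in ABX (15.9%, against 11.6% in NW).

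**Figure D3:**
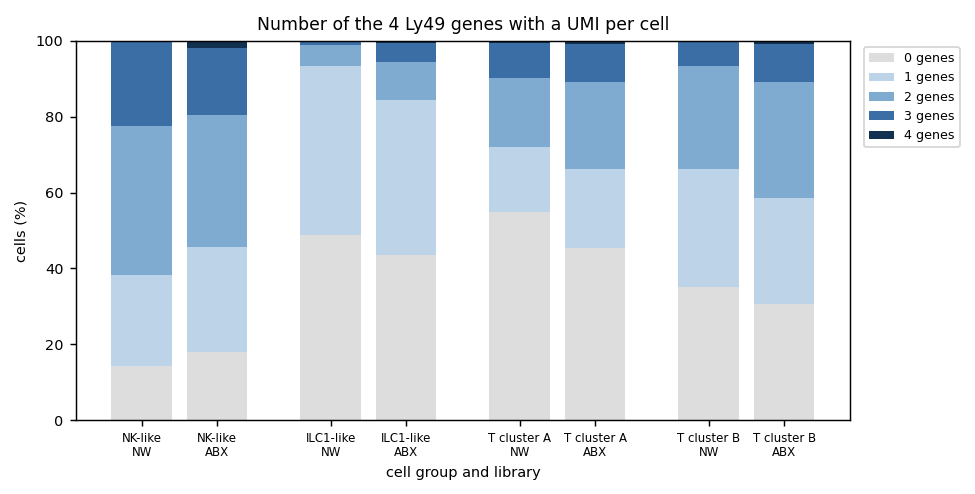
Stacked bars give the percentage of cells in which 0, 1, 2, 3 or 4 of the genes Klra1, Klra7, Klra8 and Klra9 had a UMI, by cell group and library. The part with at least 2 genes is 61.6% and 54.4% in NK-like cells and 6.67% and 15.5% in ILC1-like cells.

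Pairs of receptors were compared with the number of cells expected from the product of their shares. Among NK-like cells, Klra7 and Klra8 were seen together in 101 cells of NW and 103 of ABX, 1.17 and 1.33 times the expected number. Klra8 with Klra9 gave 1.11 and 1.13 times, and Klra7 with Klra9 gave 0.97 and 0.98 times. NKG2A went against Ly49H and Ly49G: Klra8 was found in 37.2% of the NW cells with a Klrc1 UMI and 67.8% of those without, and in 37.7% and 55.2% in ABX. For Klra7 the shares were 41.2% and 55.0% in NW and 27.3% and 51.7% in ABX. Cells with Klrc1 were not shallower, with a median of 3355.5 UMIs against 3058 in NW and 3203 against 2886 in ABX. Klra9 gave opposite orders in the libraries, with 52.7% against 57.8% in NW and 60.4% against 51.7% in ABX. In T cluster A, Klra1 and Klra7 went together: 41.5% of cells with Klra1 in NW and 54.3% in ABX also had Klra7, against 8.20% and 13.5% of cells without, where the cells with Klra1 had a median of 3284 against 2595.5 UMIs in NW and 3351 against 2875.5 in ABX. In T cluster B the shares were 84.0% and 81.2% against 34.7% and 34.9%. This pair was not particular to the T clusters. The shares were 42.9% and 92.9% against 3.61% and 7.26% in ILC1-like cells, from 3 and 13 cells with both. In NK-like cells they were 53.8% and 66.7% against 48.1% and 38.4%. Nor was T cluster A particular to this pair, as Klra9 was in 66.0% and 46.8% of its cells with Klra1 and in 18.9% of those without in each library. These are descriptions of the cells of a library, which are not replicates.

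Klrd1 and Klrk1 were also found in dendritic cell-like (DC-like) cells. Klrd1 had a UMI in 77.0% and 70.0% of a DC-like class that joined 3 clusters and is called here by Cd209a, a leading gene of the largest of them, with 439.5 CPM (414 to 466) in NW and 391 CPM (363 to 421) in ABX, where ILC1-like cells had 433 and 609.6 CPM. The DC-like cells marked by Xcr1 had it in 41.5% and 42.3%, with 81.0 and 87.1 CPM. Klrk1 was found in 62.8% and 60.8% of Xcr1 DC-like cells (160.0 and 160.2 CPM) and in 47.3% and 45.2% of Cd209a DC-like cells (174 and 196 CPM). These cells were deeper, with a median of 5895.5 to 8694.5 UMIs, and at 1000 UMIs per cell the Klrd1 share of Cd209a DC-like cells was 33.3% and 29.3%, against 57.2% and 54.3% in NK-like and 1.17% and 0.889% in B cell-like cells. The 8 other members stayed at or below 11.7% in both these DC-like classes. Together the DC-like cells of all kinds, 1690 in NW and 1263 in ABX, held 41.2% and 29.4% of all Klrd1 UMIs and 35.5% and 24.5% of all Klrk1 UMIs of their libraries. The 3 clusters were led by Cd209a (221 cells in NW), by Ighg3 (113 cells) and by Siglech (23 cells), and their Klrd1 levels were not separated.

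The comparison of the study, ABX against NW, showed small differences in NK-like cells. None of the 10 members was past 1.5-fold, where 7.23% of 6650 genes with at least 50 UMIs were. The log2 ratios of ABX to NW were -0.32 (-0.51 to -0.14) for Klra7, -0.30 (-0.51 to -0.10) for Klrc1, -0.28 (-0.42 to -0.14) for Klre1, -0.16 (-0.31 to -0.01) for Ncr1 and -0.15 (-0.25 to -0.05) for Klra8. Klra9 had 0.18 (0.05 to 0.30), and the intervals of Klra1, Klrb1c, Klrd1 and Klrk1 included 0. The summed Ly49 level was 2689 CPM in NW and 2573 CPM in ABX, with a log2 ratio of -0.06 (-0.13 to 0.01). A UMI of any of the 4 Ly49 genes was seen in 85.7% (81.4 to 89.3) and 82.0% (77.8 to 85.7) of cells.

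In ILC1-like cells 1 of the 9 members with at least 50 UMIs was past 1.5-fold, against 11.4% of 3660 genes. This was Klra7, with 15 UMIs in 6 of 90 cells of NW and 78 UMIs in 26 of 193 cells of ABX, a log2 ratio of 1.34 (0.53 to 2.24). Klra8, with too few UMIs for that count, had 2.91 (0.94 to 6.02), Klrd1 had 0.49 (0.21 to 0.79), Klra9 had 0.43 (0.20 to 0.65) and Klrk1 had -0.23 (-0.41 to -0.05). The ratios of Klra7 and Klra8 changed sign when cells were gated one by one in place of clusters, to -0.9995 and -0.13. Of the 10 ABX cells with Klra8, 3 had an Eomes UMI, against 11 of all 193 cells, and the part of NK cells in this class was not tested beyond these counts.

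**Figure D4:**
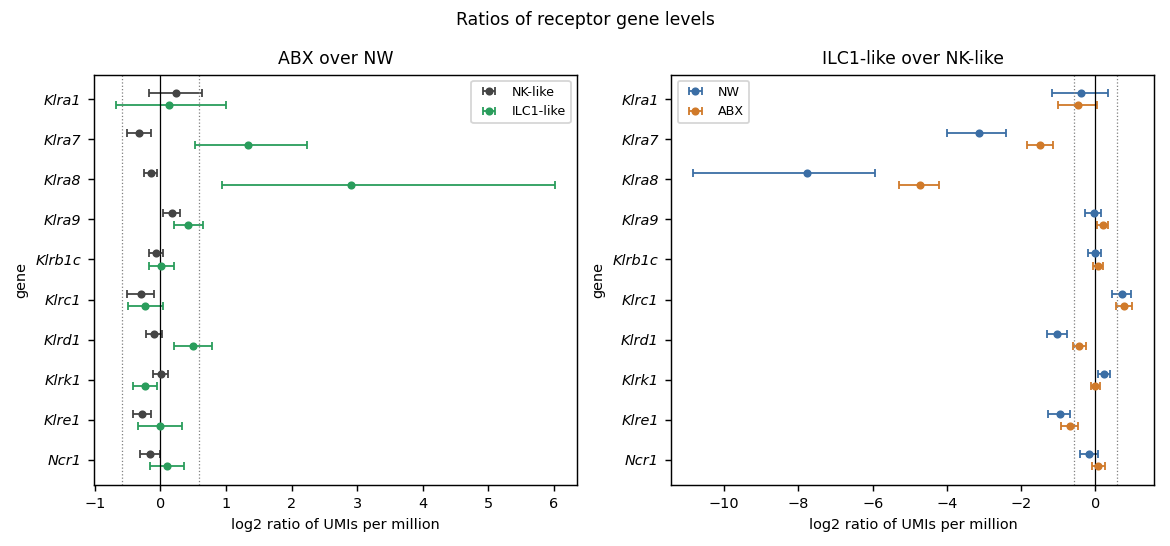
Left, the log2 ratio of ABX to NW for each receptor gene in NK-like (black) and ILC1-like cells (green), and right, of ILC1-like to NK-like cells in NW (blue) and ABX (orange), with exact 95% intervals for counting error and dotted lines at 1.5-fold. In NK-like cells all ABX to NW ratios lie between -0.32 and 0.23, and Klra8 has the lowest ratios of ILC1-like to NK-like cells (-7.78 and -4.72).

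Among T cells, Klra7 in T cluster A was the 1 of 9 members past 1.5-fold, at 0.66 (0.34 to 0.98), against 9.45% of 4507 genes. Klra9 in T cluster B was the 1 of 9 there, at 1.06 (0.39 to 1.79), against 13.6% of 2881 genes. The CD8 T-like cells marked by Gzmk (92 and 139 cells) had lower levels in ABX of all 3 members with enough UMIs, against 13.2% of 3807 genes past 1.5-fold either way. Klrc1 went from 109 to 49.0 CPM, Klrd1 from 183 to 114 CPM and Klrk1 from 245 to 131 CPM, with log2 ratios of -1.15 (-1.87 to -0.46), -0.69 (-1.18 to -0.21) and -0.90 (-1.34 to -0.47). Of the members with too few UMIs for the count, Klre1 had -1.44 (-2.51 to -0.45) and Klra9 had 1.19 (0.04 to 2.47). The summed Ly49 level was 57.6 CPM (27 UMIs) in NW and 103 CPM (59 UMIs) in ABX, with a log2 ratio of 0.84 (0.16 to 1.56). This sum also had ratios of 0.75 in macrophage-like and 0.73 in B cell-like cells, but the genes behind it differed in part. In Gzmk CD8 T-like cells Klra1, Klra7 and Klra9 were higher in ABX, and Klra8 went from 5 UMIs to 1. In macrophage-like cells the same 3 genes were higher and Klra8 had 0.08. In B cell-like cells Klra8 had 2.24, Klra1 1.15, Klra9 0.38 and Klra7 -0.42. The part of that background in the CD8 T-like value was not tested. The share of Gzmk CD8 T-like cells with Klrk1 was 37.0% (27.1 to 47.7) in NW and 23.02% (16.3 to 30.9) in ABX. In CD4 T-like cells 6 of 9 members were past 1.5-fold, all higher in ABX, against 9.91% of 9088 genes. They were Klra1, Klra7, Klra9, Klrb1c, Klrc1 and Ncr1, with log2 ratios from 0.82 (Klrc1) to 1.77 (Klra1), but at levels of 5.10 to 25.2 CPM in NW and 15.6 to 57.7 CPM in ABX. These 6 genes were also higher in ABX in macrophage-like cells, with log2 ratios from 0.82 (Klra9) to 1.35 (Klra7), where 1161 of 12121 genes were past 1.5-fold and 78.9% of these were higher in ABX. The summed Ly49 level went there from 13.9 to 23.3 CPM and in B cell-like cells from 19.8 to 32.7 CPM. B cell-like cells did not repeat the direction of all 6 genes. Klra7 (-0.42) and Klrc1 (-0.30) were lower there in ABX, and Klra9 (0.38), Klrb1c (0.68), Ncr1 (0.86) and Klra1 (1.15) were higher. Their Ly49 sum also held Klra8, which is outside the 6 and went from 6 to 60 UMIs. The part of this background in the CD4 T-like values was not tested.

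Other genes of the family were taken from lists. Their counts are to be read against the 7.23% of all genes past 1.5-fold between ABX and NW in NK-like cells, and the 19.8% in NW and 13.8% in ABX between ILC1-like and NK-like cells. Of 7 other Ly49 genes in the files, 3 had enough UMIs for ABX against NW in NK-like cells. Of these, 0 were past 1.5-fold upwards and 1 downwards, with a median log2 ratio of 0.01 against -0.01 over all genes. The 1 gene was Klra6, at -0.70 (-1.51 to 0.08). Klra5, with too few UMIs for that count, had 4 UMIs in NW and 35 in ABX, a log2 ratio of 3.01 (1.53 to 4.96). Klra4, which encodes the activating receptor Ly49D, had the pattern of Klra8: 712 and 737 CPM in NK-like cells, 0 and 22.0 CPM in ILC1-like cells and at most 12.3 CPM in T clusters A and B. Klra3 was less uneven, with 186 and 187 CPM in NK-like against 67.9 and 83.3 CPM in ILC1-like cells. T cells held more of the next pair, as Klra6 was highest in T cluster B with 113 and 96.4 CPM, against 30.6 and 18.8 CPM in NK-like cells, and Klra5 in T cluster A with 96.8 and 106 CPM, against 3.40 and 27.4 CPM. Klra10 was at 12.8 and 21.2 CPM in NK-like cells.

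Of the lectins of the NK gene complex outside the members, 9 were tested, and 0 were past 1.5-fold between ABX and NW in NK-like cells. Between ILC1-like and NK-like cells 3 were higher and 2 lower in NW, and 2 were higher and 3 lower in ABX, against 19.8% and 13.8% of all genes either way. Klrb1b, an inhibitory relative of NK1.1 that binds Clr-b, was at 964 and 863 CPM in ILC1-like and 298 and 372 CPM in NK-like cells, a log2 ratio of 1.69 (1.47 to 1.92) and 1.21 (1.03 to 1.39). Klri2, which pairs with Klre1, was at 133 and 139.8 CPM in ILC1-like and 638 and 521 CPM in NK-like cells. Klri2 thus lay on the side of its partner, and Klrb1b on the side of Klrc1. Klrb1a and Klrb1f were at 298 and 353 CPM and at 329.9 and 346 CPM in ILC1-like cells, and Clec2d, which encodes the ligand Clr-b, was at 353 and 352 CPM.

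Receptors signal through adaptors, some of which were less abundant in ILC1-like cells. Of 16 adaptor and signalling genes tested, 1 was higher and 6 lower than in NK-like cells of NW, and 0 were higher and 8 lower in ABX, where 19.8% and 13.8% of all genes were past 1.5-fold either way, with medians of -0.43 and -0.55 against 0.01 and 0.00 over all genes. Tyrobp, which encodes DAP12, the adaptor of Ly49H and Ly49D, was at 1779.8 and 1579 CPM in NK-like and 1041 and 880 CPM in ILC1-like cells. The kinase gene Fyn was at 526 and 533 CPM in NK-like and 191 and 247 CPM in ILC1-like cells. Hcst, which encodes DAP10, the adaptor of NKG2D, was at 327 and 346 CPM in NK-like and 369 and 401 CPM in ILC1-like cells, with intervals of the ratio that included 0. Fcer1g, the adaptor of NKp46, was at 1928 and 1766 CPM against 1417 and 1370.0 CPM, and Lck at 539 and 477 CPM against 437 and 434 CPM. Between ABX and NW in NK-like cells 0 of the 16 were past 1.5-fold.

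Other NK receptor genes and ligands were compared in the same way. Of 8 such receptors tested in each library, 2 were higher and 2 lower in ILC1-like than in NK-like cells of NW, and 2 were higher and 1 lower in ABX, against 19.8% and 13.8% of all genes either way. Cd226, which encodes the activating receptor DNAM-1, was at 255 and 270.2 CPM in ILC1-like and 119 and 130.1 CPM in NK-like cells, and Cd160 at 113 and 113 CPM against 68.1 and 70.5 CPM. Both were on the ILC1-like side, as Klrc1 was. Cd244, Slamf7 and Fcgr3 were at 144 and 118 CPM, 85.1 and 107 CPM, and 169 and 189.7 CPM in NK-like cells. Of 6 ligand genes, 1 was higher and 0 were lower in ILC1-like cells in each library, again against 19.8% and 13.8%. Between ABX and NW in NK-like cells 0 of the 6 ligand genes and 1 of 10 receptors tested were past 1.5-fold, against 7.23% of all genes, and the receptor was Slamf6, at 57.0 and 37.6 CPM with a log2 ratio of -0.60 (-1.17 to -0.04), which is named here after its values were seen. H2-D1 and H2-K1, the MHC class I genes whose products Ly49 receptors bind, had 4698 and 4887 CPM and 4378 and 4710.2 CPM in NK-like cells, H2-T23, which encodes the Qa-1 ligand of NKG2A, had 214 and 221 CPM, H2-Q7 had 977 and 928 CPM, and Cd48 had 236 and 197 CPM.

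By the likeness of log2(CPM + 1) over 20 classes in both libraries (40 points, 12243 genes), the genes outside the lists closest to the summed Ly49 genes were Prf1 (Pearson's r = 0.863), Samd3 (0.850), Adamts14 (0.846), Zfp512 (0.844) and Styk1 (0.840). Prf1 encodes perforin. For Klrk1 they were Elf4 (0.853), Dnajc15 (0.842), Samd3 (0.839), Rgs3 (0.828) and Me2 (0.819). The points share a library and the classes share a lineage, so these values are a description.

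The NK-1.1 antibody, which binds the product of Klrb1c, did not follow the transcript across the classes. Its median was 26 UMIs per cell in NK-like cells of NW and 21 in ABX, 25 and 18 in ILC1-like cells, 17 and 14 in B cell-like cells and 33 and 33 in macrophage-like cells. The highest medians were in endothelial-like cells, with 218.5 and 204.5, and these cells also had the highest medians of CD1d, CD25, CD3, CD69, CD8b and TCR-beta. NK-like and ILC1-like cells were thus above B cell-like and below macrophage-like cells. Other classes with few Klrb1c cells lay on both sides of NK-like cells. Gzmk CD8 T-like cells, 9.78% and 11.5% of them with Klrb1c, had medians of 28 and 23, and monocyte-like cells 28 and 24. CD4 T-like cells had 19 and 16, and ILC2-like cells 15.5 and 12. Above the 99th percentile of B cell-like cells of the library (134 and 227 UMIs) were 2.13% (0.862 to 4.35) and 1.56% (0.576 to 3.37) of NK-like cells, and 63.1% and 47.5% of endothelial-like cells. Within NK-like cells the median was 26 UMIs with a Klrb1c UMI and 26.5 without in NW, and 21 and 18 in ABX. In CD4 T-like cells, where few cells had Klrb1c, the median was higher with it, at 36 against 18 in NW and 24 against 15 in ABX. Macrophage-like cells had 42 against 32 and 55 against 33, whereas T cluster B of NW had 24 against 29.5. The cause of these differences was not tested. Over the 328 and 384 NK-like cells, Spearman's rho of the NK-1.1 count was 0.74 and 0.69 with the sum of the other antibodies of the cell and 0.07 and 0.05 with Klrb1c. CD4 and CD62L did separate classes, as the median CD4 count was 64 and 58 in CD4 T-like against 1 and 1 in NK-like cells. The median CD62L count was 18 and 15 in NK-like, 3 and 2 in ILC1-like and 53 and 38 in T cluster B cells. The CD3 antibody separated only some T cell classes. Its median was 13 and 11 in γδ T-like and 10 and 8 in CD4 T-like cells, against 4 and 4 in NK-like cells. It was 5 and 5 in T clusters A and B in each library and 10 and 9 in macrophage-like cells. The TCR-beta median was 13 and 11 in T cluster A and 19 and 15 in T cluster B. It was 46 and 32 in CD4 T-like, 8 and 8 in NK-like and 17 and 17 in macrophage-like cells. The part of cells other than T cells in T clusters A and B was not tested. Given the NK-1.1 values above, NK-1.1 protein was not used to describe the classes.

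**Figure D5:**
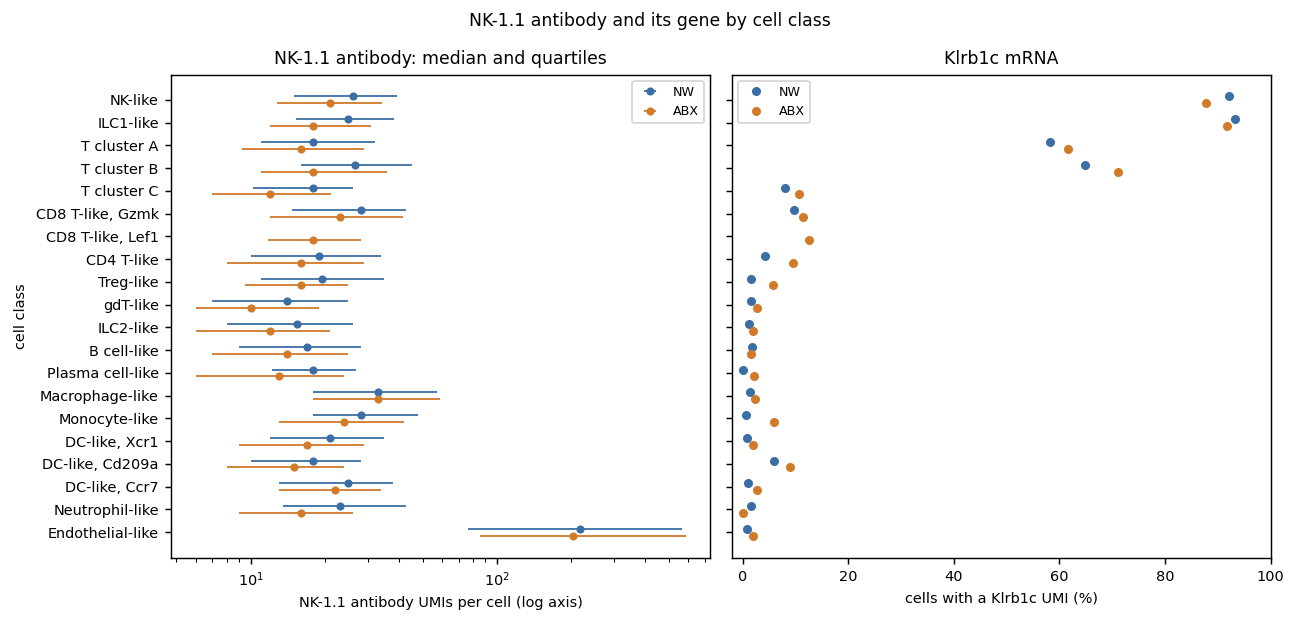
Left, the median and quartiles of NK-1.1 antibody UMIs per cell on a log axis by cell class and library, and right, the percentage of cells with a Klrb1c UMI. NK-like and ILC1-like cells lie at 87.8% to 93.3% on the right and at antibody medians of 18 to 26 on the left, below macrophage-like (33) and endothelial-like cells (218.5 and 204.5).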

How the data were processed

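CD45+ cells of VAT from 1 NW and 1 ABX library were profiled on the BD Rhapsody platform. The authors deposited UMI counts per cell label and gene or antibody, corrected for sequencing errors and not normalized, on GRCm38 (mm10), and the submitters' processing notes name R 3.6.0 and Seurat 3.0.1. Of the 10 antibodies in the files, the methods list 8, and NK-1.1 and CD3 are the others. All columns of counts were used (0 unused). NW held 17662 cell labels and ABX 17785, and cells with at least 500 UMIs, 200 genes and at most 25% mitochondrial UMIs were kept, with 75214427 and 60770758 UMIs.

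Clusters were made with Seurat 5.3.0 in R 4.3.3 (2000 variable genes, 30 principal components, resolution 0.6, weighted nearest neighbours with the 8 antibodies), without genes starting with Klr and without Ncr1. Every cluster of at least 100 cells was then clustered again at resolution 0.3. A class name needed at least 3 markers of a list, each 1.5-fold higher than in other cells and in at least 10% of cells, and T cell names needed Cd3e in 50% of cells. The naming rules were written after the clusters had been seen, and the members, gene lists and markers were chosen with earlier results of these data known. Doublets were kept in the main analysis, since scrublet's automatic threshold marked 344 cells of NW and 1 of ABX.

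UMIs were summed per class and library and given as CPM with exact Poisson intervals, shares of cells carry exact Clopper-Pearson intervals, and ratios carry exact intervals conditional on the sum of both counts, all at 95%. A gene entered a count of genes past 1.5-fold with at least 50 UMIs in both groups together. A count of 0 was given the limit of 3 counts. Thinned shares are the expected shares at 1000 UMIs per cell. All members are described in each class, and of each list the 5 genes with the most UMIs in NK-like and ILC1-like cells are named, with the 5 genes most like the summed Ly49 genes and the 5 most like Klrk1 (genes with at least 200 UMIs, classes with at least 50 cells). Start-site sequences are from RefSeq (GRCm38.p6), with an entry for 9 of the members, and gene coordinates from GENCODE for GRCm38. The scripts, run with Python 3.11.15, pandas 2.3.3, scanpy 1.11.5 and Biopython 1.88, were tested on simulated data with known ratios. The simulated sums were Poisson counts, as the intervals assume. That test therefore could not show the error that comes from UMIs gathered in few cells. The number of UMIs sets the precision of each value, and alternatives of clustering, filters, weighting, scaling and limits were tried.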

Additional observations from a re-analysis of the deposited data

Results flagged for a closer look

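The difference between ABX and NW had opposite signs in NK-like and ILC1-like cells for 2 Ly49 genes, with intervals on either side of 0. The log2 ratio of Klra7 was -0.32 in NK-like cells and 1.34 in ILC1-like cells. For Klra8 it was -0.15 and 2.91, where the ILC1-like value rests on 2 UMIs in NW and 31 UMIs in ABX. With cells gated one by one the ILC1-like ratios were -0.9995 for Klra7 and -0.13 for Klra8, and in clusters from mRNA alone that of Klra8 was -0.25, so the signs were no longer opposite there. The difference between the cell classes was not tested, since each condition was 1 library.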

How the results depend on the processing

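Klra8 in ILC1-like cells of NW rests on 2 UMIs, and its ILC1-like to NK-like ratio also moved beyond its counting interval with the way the classes were formed, from -7.78 to -2.63 in NW and from -4.72 to -2.41 in ABX with cells gated one by one. No paired analysis was possible because each condition was 1 library. Of the values for the main comparisons under the alternatives, 150 stayed within their counting interval or 1.5 times the count and 30 moved, and of the values of single genes 520 stayed, 37 moved and 3 that had been past 1.5-fold changed sign. Values inside 1.5-fold changed sign too, among them the ILC1-like to NK-like ratios of Klrk1 in NW (0.24 to -0.19 with cells gated one by one) and of Klra1 in ABX (-0.48 to 0.52 in clusters from mRNA alone), and the ABX to NW ratio of Klra1 in NK-like cells (0.23 to -0.38 in those clusters). In clusters from mRNA alone the summed Ly49 level of NK-like cells was 3030.4 CPM in NW and 2813 CPM in ABX, the ILC1-like to NK-like log2 ratio of that sum in ABX was -1.23, the share of NK-like cells above the NK-1.1 limit in NW was 0.336% and the Klra8 log2 ratio of ABX to NW in ILC1-like cells was -0.25. With more variable genes the sum was 2791 CPM in NW and the ILC1-like to NK-like ratios were -1.87 and -1.38. With at most 10% mitochondrial UMIs the sum was 2831 CPM in NW, and with each cell weighted equally 2949 CPM and 2777 CPM. Cells gated one by one (172 and 196 NK-like, 56 and 80 ILC1-like) gave a sum of 3143 CPM in NW, at least 2 Ly49 genes in 67.4% of NW cells, 0.581% and 0% of cells above the NK-1.1 limit, an ILC1-like to NK-like ratio of -1.23 in ABX, an ABX to NW ratio of the sum of -0.26 with 1 member past 1.5-fold (Klra7), and ABX to NW ratios in ILC1-like cells of -0.9995 for Klra7 and -0.13 for Klra8. At 1000 UMIs per cell a Ly49 UMI was found in 74.3% and 71.4% of NK-like cells and at least 2 genes in 37.3% and 33.5%. Against the 95th percentile of B cell-like cells 9.76% and 8.59% of NK-like cells were above the NK-1.1 limit, and against the 99th percentile of macrophage-like cells 0% in NW. With minimums of 20 UMIs and 1 UMI, 13.8% and 17.2% of genes were past 1.5-fold between ABX and NW in NK-like cells, and 21.4% and 22.1% between ILC1-like and NK-like cells of ABX. Leaving out the cells that scrublet marks was not run, since its threshold marked 0.0079% of ABX cells. In its place, by a choice made after seeing the data, the 5% of cells with the highest scores were left out, which gave a sum of 2922 CPM and 2677 CPM. The cause of these shifts was not tested.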
